A study of Rattus norvegicus with 4 samples.

Results

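The genes of 10 acute phase proteins, *Lcn2*, *Wfdc21*, *Orm1*, *Hp*, *A2m*, *Crp*, *Lbp*, *Itih4*, *Apcs*, and *Hpx*, were followed in liver RNA from male wild-type Wistar rats. They were taken by gene symbol, and all 10 were present among the 16992 annotated genes of the tables. RNA from a portion of the left lateral liver lobe was sequenced in 4 libraries, 1 for each condition. Rats inhaled either 4.5% sevoflurane or 6% desflurane for 6 hours, and each agent had its own control. Both controls also inhaled their agent, but only until loss of consciousness, so that no liver came from a rat without anesthetic. The rats were bought at 6 weeks of age, kept for at least 1 week, deprived of food and water briefly, and sacrificed at about the same time of day. The question was whether either agent alters hepatic gene expression. Because no condition was replicated, none of the differences can be set against a spread between rats, and no p-values are given.

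Acute phase proteins are plasma proteins, made mainly by hepatocytes, whose synthesis shifts during infection, injury, and other inflammation. Interleukin 6 acts through its receptor, gp130, and STAT3, and interleukin 1 and tumor necrosis factor act through NF-kB and C/EBP factors, to raise positive acute phase genes, while negative ones such as albumin decline. In the rat, alpha-2-macroglobulin and alpha-1-acid glycoprotein are classical strong responders, whereas C-reactive protein is abundant in plasma even without inflammation. Lipocalin 2 binds bacterial siderophores and is also stored in neutrophils.

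Expression is given as TPM (a transcript value scaled for gene length and library). A gene was called when its TPM was higher than 2 in the higher library of a pair and differed more than 2-fold, which is the rule of the study. The libraries held 4.47 to 5.40 Gb of aligned sequence, derived from the ratio of FPKM to coverage. The 10 hepatocyte markers examined were all abundant, and their summed TPM ranged from 132810 to 149213, with *Alb* between 77519 and 92912. In bulk liver, fewer cells of a type and less RNA per cell cannot be told apart.

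Only *Lcn2* and *Wfdc21* differed more than 2-fold between any pair of the 4 libraries. Both were highest in the desflurane control, next after 6 hours of sevoflurane, then after 6 hours of desflurane, and lowest in the sevoflurane control. The other 8 genes differed between the highest and the lowest library by 1.04-fold for *Lbp* to 1.72-fold for *A2m*. Among 9595 genes with a mean TPM higher than 2, this ratio had a median of 1.35 and was below 2 for 89.7%, so that a flat profile was the common one.

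**Figure D1:**
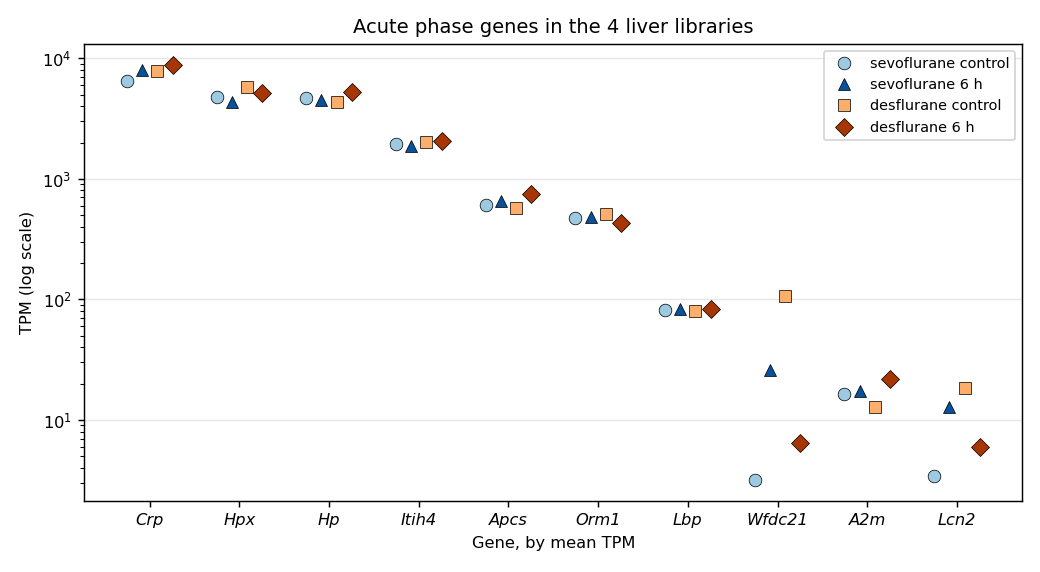
TPM values (log axis) of the 10 acute phase genes, ordered by mean TPM, with 1 point for each of the 4 libraries and no error bars because each condition has 1 library. The points of 8 genes lie close together, whereas *Wfdc21* extends from 3.17 to 107 and *Lcn2* from 3.44 to 18.5.

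The upstream sequences of these genes are shown because *Lcn2* and *Wfdc21* varied together while the others did not. RefSeq sequences (build GRCr8, not the rn6 build of the tables) were matched by symbol for 7 of the 10 genes, and *Hp*, *A2m*, and *Lbp* had no entry. The 250 bases before the gene start were searched on both strands for CTGGGAA (the core of the interleukin 6 response element), TTCNNNGAA (STAT), TTGCNNNAA (C/EBP), and the NF-kB consensus. Among 33469 upstream sequences of the same length, these were present in 9.56%, 7.67%, 8.17%, and 3.54%, respectively. Capitals mark the matched letters. The sequences of both genes that varied, and of *Itih4* as a flat gene with a STAT match, were as follows, 5′ to 3′ on the strand of the gene.
Lcn2 (chr3:36081781-36082030, minus strand): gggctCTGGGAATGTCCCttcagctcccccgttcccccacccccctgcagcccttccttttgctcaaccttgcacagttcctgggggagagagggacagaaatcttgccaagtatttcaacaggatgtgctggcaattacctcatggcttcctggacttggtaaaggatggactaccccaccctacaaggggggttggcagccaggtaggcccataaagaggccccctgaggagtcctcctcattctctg
Wfdc21 (chr10:69125086-69125335, plus strand): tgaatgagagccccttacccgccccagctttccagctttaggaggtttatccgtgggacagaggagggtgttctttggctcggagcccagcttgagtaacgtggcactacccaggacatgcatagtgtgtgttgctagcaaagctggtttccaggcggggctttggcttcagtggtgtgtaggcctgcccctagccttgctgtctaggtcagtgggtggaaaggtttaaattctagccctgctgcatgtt
Itih4 (chr16:6086735-6086984, plus strand): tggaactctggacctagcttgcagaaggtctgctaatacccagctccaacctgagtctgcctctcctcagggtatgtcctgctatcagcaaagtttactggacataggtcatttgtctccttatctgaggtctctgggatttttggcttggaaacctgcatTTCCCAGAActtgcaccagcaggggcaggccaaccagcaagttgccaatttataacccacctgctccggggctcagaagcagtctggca
*Lcn2* carried CTGGGAA from base -245 to -239 before the gene start, overlapping an NF-kB match from -242 to -233, and *Wfdc21* carried none of these motifs in this window. *Itih4* carried a STAT match from -89 to -81 that overlaps CTGGGAA on the other strand. Of the remaining genes, *Orm1* and *Crp* each had 1 TTGCNNNAA match, *Apcs* had CTGGGAA at 2 positions, and *Hpx* had no match to the searched motifs. In all, 5 of the 7 genes had at least 1 match, and these letter matches are a description of the sequence and not of binding.

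*Lcn2* encodes lipocalin 2 and lies on rn6 chromosome 3, from 11414189 to 11417534 on the minus strand. With sevoflurane, its TPM was 3.44 in the control and 12.7 after 6 hours, and with desflurane it was 18.5 in the control and 5.92 after 6 hours. Both 6-hour libraries were therefore between the controls. The values rest on a mean coverage of 6.19 to 34.7 reads per base.

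*Wfdc21* encodes a small secreted protein of the whey acidic protein family and lies on rn6 chromosome 10, from 71047326 to 71053195 on the plus strand. With sevoflurane, its TPM was 3.17 in the control and 25.9 after 6 hours, and with desflurane it was 107 in the control and 6.43 after 6 hours. The coverage was 5.70 and 43.8 reads per base for sevoflurane and 200.3 and 10.8 for desflurane. The order of the libraries was that of *Lcn2*, with a wider range. In the sevoflurane control, StringTie assembled a shorter transcript spanning 2367 bases, at 4.43 TPM, compared with 5870 bases for the annotated row, and in the other libraries the assembled and annotated rows were the same. Where 4 values follow without labels, they are given in this order, that is, sevoflurane control and 6 h, then desflurane control and 6 h.

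With sevoflurane and its own control, 2 of the 10 genes were called higher and 0 were called lower, compared with 2.23% and 3.3% (5.54% in either direction) of the 9754 genes that were able to pass. *Lcn2* was 3.70-fold and *Wfdc21* 8.16-fold higher, which placed them at rank 45 and rank 11 from the highest ratio. With desflurane and its own control, 0 genes were called higher and 2 were called lower, compared with 2.79% and 1.48% (4.27% in either direction) of 9855 genes. *Lcn2* was 3.13-fold lower and *Wfdc21* 16.6-fold lower, at rank 38 and rank 5 from the lowest ratio. The same 2 genes thus passed the limits in opposite directions with the 2 agents, a contrast that could not be tested without replicates.

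The 2 controls differed from each other in the same genes. In the desflurane control, 2 of the 10 genes were called higher than in the sevoflurane control, compared with 1.17% of 9756 genes, and 0 were called lower (also 1.17%, and 2.34% in either direction). *Lcn2* was 5.38-fold and *Wfdc21* 33.7-fold higher there, at rank 13 and rank 2 of the 9756 genes. For both genes this gap between 2 livers without prolonged anesthesia was larger than the difference of either 6-hour library from its own control. These comparisons share the control libraries and are not independent.

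With the controls exchanged, the directions of both genes were turned. Sevoflurane was then compared with the desflurane control, and 1 gene was called lower (background 2.59%) and 0 were called higher (2.52%, and 5.12% in either direction). *Wfdc21* was 4.14-fold lower, and *Lcn2* was 1.45-fold lower and did not pass. Desflurane was compared with the sevoflurane control, and 1 gene was called higher (2.84%) and 0 were called lower (1.58%, and 4.42% in either direction). This was *Wfdc21* at 2.03-fold, just past the limit, and it no longer passed after median-of-ratios scaling, with FPKM, or with a pseudocount of 1 TPM. *Lcn2* was 1.72-fold higher. Between the 6-hour libraries, *Lcn2* was 2.15-fold and *Wfdc21* 4.02-fold lower with desflurane than with sevoflurane, and these were the 2 of the 10 genes called lower in this pair (background 1.17%). None was called higher (2.76%, and 3.93% in either direction).

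**Figure D2:**
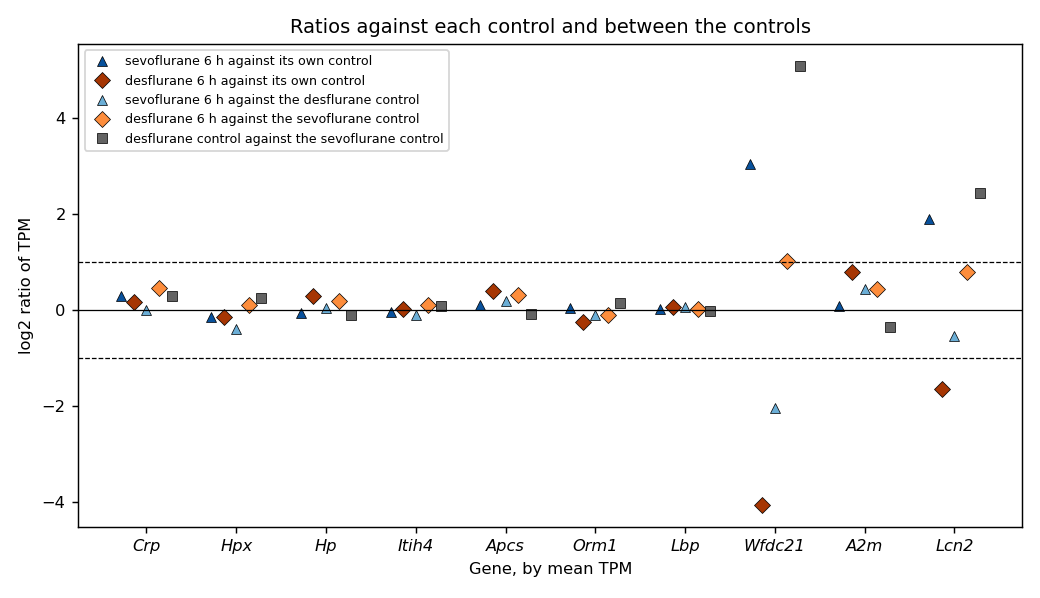
log2 ratios of TPM for the 10 genes in 5 comparisons, with dashed lines at the 2-fold limits and 1 point for each pair of libraries. For *Wfdc21* and *Lcn2* the grey squares, which compare the controls, lie farther from 0 than the ratios of each agent to its own control, and the light points, which use the other control, lie on the opposite side of 0.

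Markers of other cell types were examined beside these 2 genes, since neutrophils and bile duct epithelium can express *Lcn2*. Of 12 neutrophil markers, only *Itgam*, which is shared with macrophages, reached a TPM higher than 2 in any library (4.29, 0.944, 2.85, and 2.61 TPM, 4.54-fold lower with sevoflurane). *Fcnb* stayed at or below 1.98 TPM, and *Ltf* and *Camp*, which encode granule proteins, were listed at 0 in all 4. The list summed to 9.71 TPM in the control and 4.92 TPM after 6 hours for sevoflurane, and to 10.2 and 4.80 TPM for desflurane. Without *Itgam*, which accounts for most of the difference with sevoflurane, the sum was 5.42, 3.97, 7.31, and 2.19 TPM. Both sums were lower after sevoflurane than in its control, where *Lcn2* and *Wfdc21* were higher, and lower after desflurane, as *Lcn2* and *Wfdc21* were. Single genes differed from the sum. *S100a9*, a calcium-binding protein of neutrophils, was at 1.11, 1.29, 1.98, and 0.486 TPM, and its partner *S100a8* was at 0.901, 0.950, 1.69, and 0.314 TPM. *Cxcr2*, a chemokine receptor, was at 0.116, 0.136, 0.220, and 0.0850 TPM. These 3 genes, of which *S100a8* and *Cxcr2* were named after their values were seen, were highest in the desflurane control and next highest after 6 hours of sevoflurane, as *Lcn2* was, all at less than 2 TPM. They were the only 3 of the list above the own control with sevoflurane, and 6 were below it. With desflurane, 1 of the list was above the own control and 8 were below it. In the desflurane control, 6 were higher and 4 lower than in the sevoflurane control. *Fcnb* was at 1.98, 0.923, 1.97, and 0.413 TPM. *Csf3r*, also named after its values were seen, was lowest in the desflurane control, at 0.568, 0.339, 0.203, and 0.352 TPM. The 5 bile duct markers that matched summed to 15.1, 16.9, 21.4, and 14.5 TPM, the order of *Lcn2* except for the lowest libraries, and none of them was called, with *Epcam*, a surface protein of epithelial cells, at 9.19, 10.3, 13.9, and 7.97 TPM. The 11 matched macrophage markers summed to 809, 485, 641, and 757 TPM, led by *C1qc*, *Clec4f*, and *C1qb*, and were lowest where *Lcn2* was second highest. Lymphocyte markers summed to 45.1, 26.7, 38.3, and 42.2 TPM over 11 matched genes. This list was led by *Cd4* and *Ptprc*, which are shared with macrophages. With sevoflurane against its own control, *Adgre1*, *Marco*, *Csf1r*, and *Cd5l* of the macrophage list were called lower (2.12-fold to 2.72-fold). So were *Cd8a*, *Cd79b*, *Nkg7*, and *Ptprc* of the lymphocyte list. No gene of these 2 lists was called with desflurane against its own control. Against the desflurane control, only *Marco*, *Cd5l*, *Cd8a*, and *Ptprc* were called lower with sevoflurane. *Nkg7* was 2.17-fold lower in the desflurane control than in the sevoflurane control. *Cd8a*, *Cd79b*, and *Nkg7* did not exceed 3.18 TPM in any library. Of the hepatocyte markers, *Ass1* was 2.28-fold higher with desflurane and none was called with sevoflurane against its own control. *Tat* was 1.99-fold higher there, just short of the limit, and was called against the desflurane control at 2.19-fold. The part of other cells in the result was not tested.

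Ribosomal RNA rows moved with both genes in part. *Rn45s*, *Rn28s*, *Rn18s*, and *Rn5-8s* together made up 1.26% of the annotated TPM in the control and 2.94% after 6 hours for sevoflurane, and 4.50% and 0.979% for desflurane. The 2 libraries with the most ribosomal RNA were those with the most *Lcn2* and *Wfdc21*. *Rn5-8s* alone was highest after 6 hours of sevoflurane, at 586 TPM, compared with 550 TPM in the desflurane control. The summed rows were lowest after 6 hours of desflurane, whereas both genes were lowest in the sevoflurane control. Without these rows and with rescaled values, *Lcn2* and *Wfdc21* were still called with both agents against their own controls and between the controls. The part of the ribosomal RNA content in the result was not tested.

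**Figure D3:**
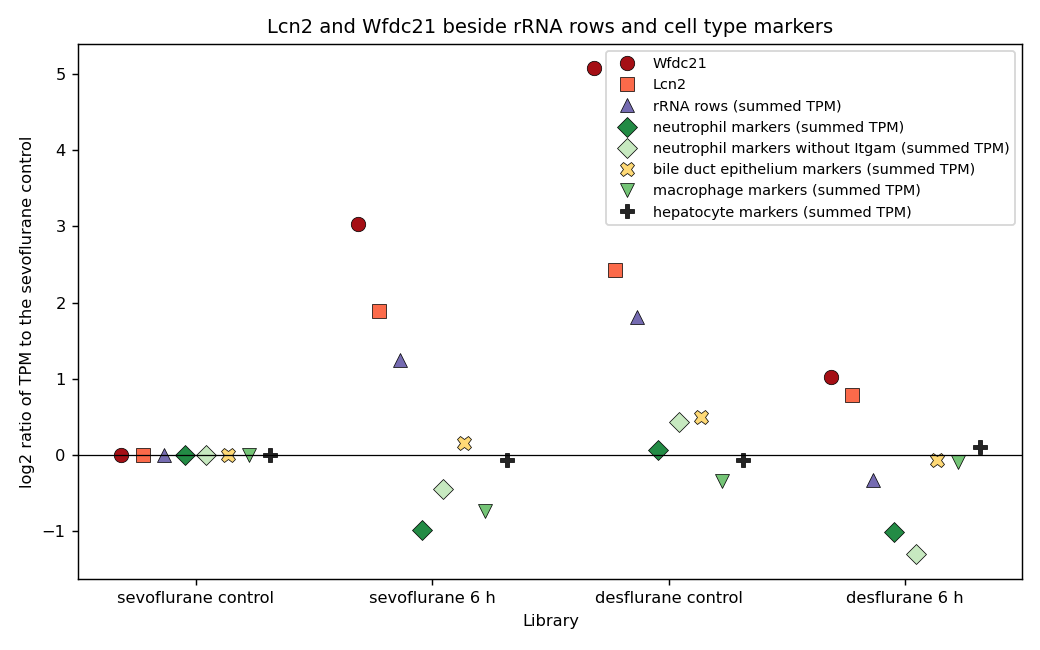
log2 ratios of each library to the sevoflurane control for *Wfdc21*, *Lcn2*, the summed ribosomal RNA rows, and the summed markers of neutrophils (with and without *Itgam*), bile duct epithelium, macrophages, and hepatocytes, with 1 point per library. The ribosomal RNA rows follow *Lcn2* and *Wfdc21* in the sevoflurane 6 h and desflurane control libraries (1.24 and 1.81). In the desflurane 6 h library they are at -0.33, where *Lcn2* and *Wfdc21* are at 0.78 and 1.02. In the sevoflurane 6 h and desflurane control libraries, the bile duct markers are at 0.16 and 0.50. The neutrophil markers are there at -0.98 and 0.06, or at -0.45 and 0.43 without *Itgam*.

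The genes with the profile nearest to *Lcn2* were *Ssx2ip*, *Abo3*, *Cyp4a2*, *Cyp4a3*, and *Asrgl1*, by the distance between log2(TPM + 1) values centered per gene over the 4 libraries, among 9595 genes. Their distances were between 0.25 and 0.59, compared with a median of 1.72 for all genes, and 4 values per gene are few for such a measure. *Cyp4a2*, a fatty acid hydroxylase, was at 71.4, 181, 225, and 73.6 TPM. *Wfdc21* had no near neighbor by this distance, which is not scaled for the width of the range of a gene. The nearest genes were *Rn18s*, *Pde4d*, *Lcn2*, *Rn45s*, and *Ssx2ip*, at distances of 1.91 to 2.22. By distance from *Lcn2*, *Wfdc21* was only at rank 8807, although it shared the order of the libraries, and the flat *Orm1* was at rank 1238.

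The classical acute phase reactants of the rat did not pass the limits in any comparison. *A2m*, alpha-2-macroglobulin, a broad protease inhibitor, was at 16.3 TPM in the control and 17.3 TPM after 6 hours for sevoflurane, and at 12.8 and 22.0 TPM for desflurane. Its ratio to the own control was 1.06 with sevoflurane and 1.72 with desflurane, and the desflurane control was the lowest library. Against the sevoflurane control, the ratio with desflurane was 1.35. The row of *A2m* covers 163613 bases on rn6 chromosome 4, from 154309426 to 154473038, between *Mug2* and *LOC297568*. The related genes around it were far more abundant, with *Mug1* at 1989 to 2824 TPM and *LOC297568*, named after its values were seen, at 3626 to 5444 TPM. In each library, 1 transcript unit assembled by StringTie spanned all of them, and in 2 libraries a second assembled row also overlapped *A2m*. How reads were divided among these genes is not known from the tables, and the low value of *A2m* is uncertain.

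*Orm1*, alpha-1-acid glycoprotein, a carrier of basic drugs in plasma, was at 469 TPM in the control and 480 TPM after 6 hours for sevoflurane, and at 515 and 433 TPM for desflurane. The ratio to the own control was 1.02 and 0.840. After 6 hours of desflurane it was below both controls by TPM, after median-of-ratios scaling, and by FPKM. The row lies on rn6 chromosome 5, from 79179668 to 79182820.

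The pentraxins *Crp* and *Apcs* form pentameric rings that bind phosphocholine and other ligands on microbes and damaged cells, and both lie on rn6 chromosome 13, *Crp* from 91080448 to 91081358 and *Apcs* from 91426621 to 91427417. *Crp*, C-reactive protein, was the most abundant member, at 6474, 7927, 7889, and 8838 TPM, and between rank 9 and rank 12 of all genes. The ratio to the own control was 1.22 with sevoflurane and 1.12 with desflurane, and the controls differed by 1.22-fold. *Apcs*, serum amyloid P component, was at 606, 653, 574, and 751 TPM. Its ratio was 1.08 with sevoflurane and 1.31 with desflurane. The long pentraxin *Ptx3*, which was listed as a relative and is made outside hepatocytes, was at 1.53, 1.95, 4.12, and 1.90 TPM. It was called lower with desflurane (2.16-fold) and higher in the desflurane control than in the sevoflurane control (2.69-fold), at levels near the TPM limit. With sevoflurane it was called lower against the desflurane control (2.11-fold). The order of the libraries was that of *Lcn2*, with the 6-hour libraries nearly equal.

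The scavenger proteins that clear hemoglobin and heme were flat as well. *Hp*, haptoglobin, which binds free hemoglobin, was at 4665, 4487, 4346, and 5285 TPM, with ratios of 0.962 with sevoflurane and 1.22 with desflurane. *Hpx*, hemopexin, which binds heme, was at 4815, 4357, 5747, and 5201 TPM, with a ratio of 0.905 for both agents. For *Hpx*, the controls differed by 1.19-fold. *Hp* lies on rn6 chromosome 19, from 42096255 to 42100805, and *Hpx* on chromosome 1, from 170423558 to 170431066.

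*Lbp*, which binds lipopolysaccharide and hands it to CD14, was the steadiest member by TPM, at 81.9, 83.3, 80.4, and 83.6. By FPKM its highest and lowest libraries differed by 1.17-fold, and those of *Itih4* by 1.12-fold. Of the 9595 genes compared, 9546 had a larger TPM ratio between the highest and the lowest library. *Itih4*, a heavy chain of the inter-alpha-trypsin inhibitor family, was at 1930, 1876, 2030, and 2057 TPM, and its ratios were 0.972 and 1.01. The related *Itih3*, named after its values were seen, and *Ambp*, the light chain precursor of the family, were between 1744 and 2249 TPM and between 3289 and 3351 TPM. *Lbp* lies on rn6 chromosome 3, from 154786232 to 154812910, and *Itih4* on chromosome 16, from 6970367 to 6985538.

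Across the 10 genes, the TPM change with sevoflurane was smaller than the gap between the controls for 8 genes (7 after median-of-ratios scaling and 8 by FPKM), compared with 37.8% of 9593 genes (37.9% and 51.3%). With desflurane it was smaller for 5 genes (4 and 6), compared with 37.2% (40.5% and 54.1%). *Lcn2* and *Wfdc21* were between the controls with both agents under each of these scalings. The place of the flat members moved with the scaling, since their ratios are close to 1. After 6 hours of sevoflurane, 4 of the 10 were above both controls and 2 below both by TPM, 2 and 5 after median-of-ratios scaling, and 3 and 1 by FPKM. After desflurane, 6 were above and 1 below by TPM, 4 and 3 after median-of-ratios scaling, and 3 and 4 by FPKM. The median log2 change of the 10 genes, taken on the log2(TPM + 1) scale, was 0.06 for sevoflurane and 0.04 for desflurane, and the medians of all genes with a mean TPM higher than 1 were 0.05 and 0.11. Under the same calculation, the desflurane control differed from the sevoflurane control by a median of 0.10 (-0.072 with FPKM), compared with -0.02 for all genes. With the other control, the medians were -0.05 for sevoflurane and 0.24 for desflurane (-0.0091 with FPKM), compared with 0.05 and 0.10.

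Other positive acute phase proteins were examined as a list, of which 26 of 29 symbols matched and 24 were able to pass. With sevoflurane, 0 were called higher and 1 lower, compared with 2.23% and 3.3% of all genes able to pass. With desflurane, 2 were called higher and 1 lower, compared with 2.79% and 1.48%. The same shares are the background for the counts of the cell type markers above and of the lists below against their own controls. The abundant members did not pass, including *Serpina1*, alpha-1-antitrypsin, at 8889, 9489, 8529, and 9146 TPM. *C3*, the central complement component, was at 5703, 5025, 6407, and 5945 TPM, and *Fgb*, the fibrinogen beta chain, was at 4457, 3803, 4398, and 4734 TPM. The list medians were -0.09 with sevoflurane and 0.17 with desflurane.

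The members of this list that passed were *Hamp*, *Mt1*, and *Mt2A*. *Hamp* encodes hepcidin, the hormone that blocks iron export and is raised by interleukin 6. Its TPM was 1487 in the sevoflurane control and 458 after 6 hours (3.25-fold lower), and 893 in the desflurane control and 30.4 after 6 hours (29.4-fold lower). The desflurane library was lower than both controls by more than 2-fold, whereas the sevoflurane library was 1.95-fold lower than the desflurane control. The metallothionein *Mt2A*, a metal-binding protein that responds also to glucocorticoids and zinc, was at 1245, 1424, 455, and 1583 TPM. It was 3.48-fold higher with desflurane, and its control was 2.74-fold lower than the sevoflurane control. *Mt1* showed 3640, 2561, 1676, and 3509 TPM and was 2.09-fold higher with desflurane. For both metallothioneins the desflurane control was thus the lowest library, and for *Mt1* the sevoflurane 6 h library lay between it and the others. After 6 hours of desflurane, *Mt2A* was 1.27-fold and *Mt1* 0.964-fold of the sevoflurane control.

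Negative acute phase proteins, of which 10 of 12 symbols matched, were called in neither direction with either agent. Their median log2 change with sevoflurane was -0.12 (all genes 0.05), and 9 of 10 were lower than in its own control. Against the desflurane control it was -0.11 (all genes 0.05), with 6 lower and 4 higher. With desflurane and its own control it was -0.0010 (all genes 0.11), with 5 higher and 5 lower. *Alb* was at 83368, 79111, 77519, and 92912 TPM. *Ahsg*, fetuin A, was between 13470 and 14468 TPM. *Tf*, transferrin, was at 23022, 21343, 25582, and 23404 TPM. The differences were all below 2-fold and included *Serpina6*, the corticosteroid-binding globulin and named after its values were seen, at 1103 TPM in the sevoflurane control and 659 TPM after 6 hours of sevoflurane.

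Most cytokines that induce acute phase genes were below the TPM limit, while *Il1a* and *Il1b* exceeded it in every library. *Il6* and *Il22* were listed at 0 in all 4 libraries, and only 3 of 10 were able to pass. *Il1b* was at 4.50, 2.34, 2.26, and 4.71 TPM and was called higher with desflurane (2.08-fold), although the value equaled that of the sevoflurane control within 1.05-fold. *Clcf1*, a ligand of the interleukin 6 family, was at 1.14, 2.20, 1.31, and 4.26 TPM, and was called higher with desflurane against both controls (3.26-fold and 3.75-fold). *Il1a* was at 7.75, 4.76, 8.85, and 7.94 TPM.

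Among 12 receptors, 10 were able to pass, 0 were called with sevoflurane, and 1 was called higher with desflurane. This was *Il6r*, the ligand-binding chain for interleukin 6, at 57.8, 64.9, 44.1, and 99.8 TPM. It was 2.27-fold higher than in its own control and 1.73-fold higher than in the sevoflurane control. *Il6st*, which encodes gp130, was at 112, 85.9, 97.2, and 163 TPM, and *Il1r1* was at 88.6, 121, 85.5, and 116 TPM. *Tnfrsf1a*, a receptor of tumor necrosis factor, was at 78.7, 94.6, 46.9, and 84.2 TPM and passed only for sevoflurane against the desflurane control (2.02-fold). In the same comparison, *Tnfrsf1b* was 2.59-fold lower.

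Of 16 matched transcription factors and signaling genes, 1 was called higher with sevoflurane and 0 were called with desflurane. The gene was *Onecut1*, a hepatocyte transcription factor, at 15.2, 33.9, 61.2, and 41.9 TPM. Its order over the libraries differed from that of *Lcn2* in the 2 middle positions, and the controls differed by 4.02-fold. *Cebpb* was at 111, 164, 124, and 126 TPM, *Cebpa* was between 161 and 182 TPM, and *Hnf4a* was between 199 and 246 TPM.

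The feedback inhibitors of cytokine signaling include *Socs3* and *Cish*, which were called lower with both agents. Of 9 matched genes, 2 were called lower with sevoflurane. With desflurane, the same 2 genes were called lower and 1 was called higher. *Socs3*, an inhibitor induced by STAT3, was at 15.2, 3.74, 24.2, and 9.76 TPM, which was 4.06-fold lower with sevoflurane and 2.48-fold lower with desflurane. With the other control it was 6.48-fold lower with sevoflurane and 1.55-fold lower with desflurane. *Cish*, an inhibitor induced by STAT5, was at 21.9, 3.63, 70.0, and 8.40 TPM and was lower in both 6-hour libraries than in either control, by 2.61-fold to 19.3-fold. *Nfkbiz*, a regulator induced by NF-kB that takes part in *Lcn2* transcription, was at 6.07, 8.57, 4.44, and 10.9 TPM. It was 2.46-fold higher with desflurane, where *Lcn2* was lower, and 1.41-fold higher with sevoflurane, where *Lcn2* was also higher. Compared with the sevoflurane control, both genes were higher after 6 hours of desflurane. In the desflurane control, *Nfkbiz* was at its lowest and *Lcn2* at its highest. A link between *Nfkbiz* and *Lcn2* was not tested. *Socs2*, an inhibitor of growth hormone signaling, was at 38.8, 20.3, 96.4, and 61.2 TPM, and among the comparisons with a control was called only against the desflurane control, where sevoflurane was 4.74-fold lower and the sevoflurane control 2.48-fold lower. *Nfkbia*, which holds NF-kB in the cytoplasm, was 1.61-fold and 1.60-fold higher.

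**Figure D4:**
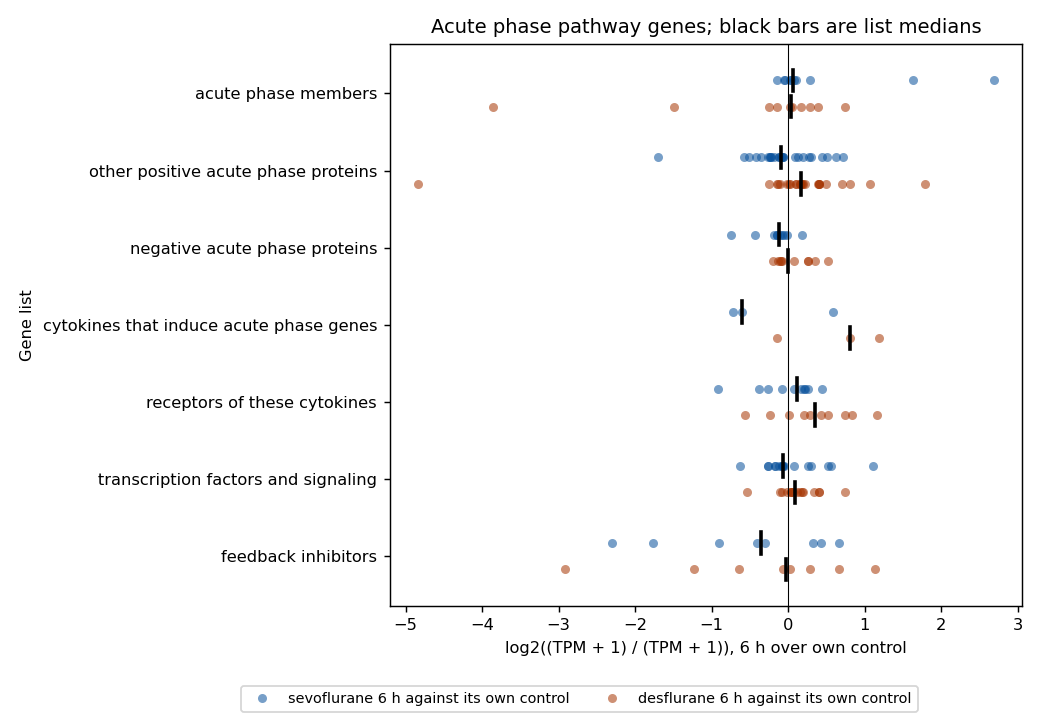
log2 changes after 6 hours against the own control, calculated after adding 1 to the TPM values, for genes with a mean TPM higher than 1 in 7 lists, with 1 point per gene and a black bar at the list median. The medians of the acute phase members lie at 0.06 and 0.04. The points far from the others include *Wfdc21* and *Lcn2* among the members, *Hamp* and *Mt2A* among the other positive proteins, and *Socs3* and *Cish* among the inhibitors.

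Of 12 matched relatives of the members, 1 was called higher and 1 lower with sevoflurane, and 0 higher and 2 lower with desflurane. *Mbl2* was the relative called lower with both agents and against both controls. *Mbl2*, a mannose-binding lectin that activates complement, was at 483, 207, 511, and 173 TPM. It was 2.34-fold lower with sevoflurane and 2.95-fold lower with desflurane, and the controls differed by 1.06-fold. *Mbl1*, named after its values were seen, was between 158 and 175 TPM. *Pzp*, a relative of *A2m*, was at 3365, 2655, 3423, and 3645 TPM. *Wfdc3* was higher by 2.53-fold with sevoflurane and by 2.51-fold with desflurane against the sevoflurane control, at 1.22 to 3.08 TPM, near the limit. *Wfdc2*, also named after its values were seen, was between 31.1 and 37.7 TPM.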

How the data were processed

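Liver RNA was sequenced in 4 libraries, 1 per condition, and conditions were taken from the sample labels. The authors trimmed the reads, mapped them to rn6 with HISAT2, sorted them with SAMtools, and ran StringTie. The deposited tables give coverage (a signal, the mean read depth over exons), FPKM normalized for library size, and TPM, a signal scaled to a fixed sum over all rows of a library. Read counts were not used here, and the precision of single values is unknown apart from the coverage. The labels and the methods name different library kits.

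Annotated rows longer than 200 bases were kept and TPM was summed per symbol, which left 16992 genes. Ratios had no pseudocount, and genes were called by a TPM higher than 2 and a 2-fold difference. Percentages of called genes refer to genes with a TPM higher than 2 in at least 1 library of the pair. Members and lists were chosen with earlier results of these data known. The genes named are the members, the 3 most abundant genes of each list, those past the limits against a control, and the 5 nearest to *Lcn2* and *Wfdc21*, and any other gene was picked with its values known. Python 3.11.15, numpy 2.4.6, and pandas 2.3.3 were used. The code of the rule was checked on simulated data with large set changes and little noise, which does not test the calls in the real libraries. Alternatives were other fold limits, pseudocounts, scalings, filters, and controls.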

Additional observations from a re-analysis of the deposited data

Results flagged for a closer look

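Against their own controls, 5 of the 10 genes differed in opposite directions with the 2 agents by TPM, compared with 39.7% of 9593 genes, each with 1 library per state, and the difference was not tested. After median-of-ratios scaling or by FPKM, 3 genes (*Lcn2*, *Wfdc21*, and *Hp*) did so, compared with 40.1% and 40.7%. The log2 change with sevoflurane minus that with desflurane was 3.53 for *Lcn2* and 7.08 for *Wfdc21*, which also passed the limits in opposite directions. It was 0.29 for *Orm1*, -0.34 for *Hp*, and -0.060 for *Itih4*, and none of these 3 genes passed the limits.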

How the results depend on the processing

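The calls of *Lcn2* and *Wfdc21* against their own controls kept their direction with another scaling, pseudocount, low-value filter, or fold limit, with FPKM, and without ribosomal RNA rows. With the arithmetic mean of both controls, sevoflurane gave 0 members higher and 1 lower, and desflurane gave 1 lower. The sevoflurane ratio of *Wfdc21* became 0.470. For *Wfdc21* this mean is largely set by the desflurane control, at 107 TPM compared with 3.17 TPM in the sevoflurane control. The number called higher with desflurane against the sevoflurane control was 2 at a 1.5-fold limit and 0 at a 3-fold limit, with a pseudocount of 1, median-of-ratios scaling, FPKM, annotated rows rescaled, or without ribosomal RNA rows. At the 1.5-fold limit, 1 member (*A2m*) was higher with desflurane against its own control. Between the 6-hour libraries, 1 was lower at a 3-fold limit or a pseudocount of 1. The removal of ribosomal RNA rows, the use of assembled rows, and the scalings of counts relative to both controls were chosen after seeing the data, and the causes of these shifts were not tested.

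With a pseudocount of 0.1, median log2 changes against the own control were 1.03 for cytokines with desflurane, -1.02 and -1.83 for neutrophil markers with sevoflurane and desflurane, and -1.71 for lymphocyte markers with sevoflurane. With FPKM these were 0.51, -0.40, -0.54, and -0.81, and without the low-value filter they were 0, -0.011, -0.13, and -0.40, with 0 also for cytokines with sevoflurane. With FPKM, the members' median was -0.0091 for desflurane against the sevoflurane control, -0.072 between controls, and -0.058 between the 6-hour libraries. Between controls, FPKM gave -0.21 for other positive proteins, -0.17 for negative proteins, -0.18 for receptors, -0.22 for transcription factors, 0.012 for feedback inhibitors, 0.092 for bile duct, -0.30 for hepatocyte markers, and -0.10 for relatives. Feedback inhibitors were at 0.015 without the filter. No paired analysis was possible because each condition had 1 library and the labels carry no replicate numbers. For the same reason no replicate could be left out.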
